A study of Mus musculus with 2 samples.

Results

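The 10 genes described here are the lipid droplet and lipid uptake genes Plin2, Plin4, Plin5, Cideb, Cidec, Pnpla2, G0s2, Cd36, Pparg and Mttp. They were chosen by name and matched by symbol to 10 of the 32286 gene rows of a single-nucleus count table from regenerating mouse liver. Hepatocytes keep surplus fatty acids as triglyceride in droplets coated by perilipins. Lipases release the fatty acids again for mitochondrial oxidation, and part of the triglyceride leaves the cell as very-low-density lipoprotein (VLDL). A regenerating liver is known to gather lipid droplets for a time after part of it is removed, and oxidation of that fat needs the respiratory chain.

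The study compared 1 liver labelled Cox10-/- with 1 liver labelled wild-type. COX10 makes heme O, the precursor of the heme A of cytochrome c oxidase, the terminal enzyme of the respiratory chain. Both animals belonged to a set of mice with a floxed Cox10 allele that were given AAV8-GFP or AAV8-Cre by retro-orbital injection, with a 70% partial hepatectomy 4 weeks later. AAV8 is a viral vector that mainly enters hepatocytes in mouse liver. The labels do not say which virus each animal received, which promoter drove Cre, or the age, sex or strain. The treatment protocol puts dissection 4 days after the hepatectomy, whereas the sample characteristics say 4 weeks. The mice ate standard chow, and perfused, digested livers were strained at 70 µm before 7000 nuclei per liver were used for droplet libraries read at the 3′ end. Each genotype had 1 library, so no test between the genotypes was possible, and every interval below is a 95% interval that covers counting error only and not the spread between animals.

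The library labelled Cox10-/- comprised 14476400 UMIs (unique transcript counts) from 5167 nuclei, at a median depth of 2291. The wild-type library comprised 17703804 UMIs from 5448 nuclei, at a median depth of 2853.5. Mitochondrially encoded UMIs had a median share of 8.92% in Cox10-/- nuclei and 12.6% in wild-type nuclei, and 7 cell barcodes occurred in both libraries. Cox10 itself stood at 39.3 CPM (depth-scaled UMI counts; interval 34.1 to 45.0) in Cox10-/- hepatocyte-like nuclei and at 34.7 CPM (31.9 to 37.6) in wild-type ones. The labels do not name the deleted part of Cox10, and a 3′ tag outside it checks nothing, so the genotypes below rest on the labels alone. Marker genes named 1753 Cox10-/- and 5197 wild-type nuclei hepatocyte-like, 1416 and 45 endothelial-like, 750 and 33 stellate-like, and 550 and 38 macrophage-like.

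Free hepatocyte RNA was present in every lineage. The median ratio of 18 hepatocyte markers in hepatocyte-like nuclei over the endothelial-, stellate-, macrophage- and lymphoid-like nuclei of the same library was 1.92 for deep Cox10-/- hepatocyte-like nuclei (range 0.618 to 7.33) and 1.56 for wild-type ones (range 0.884 to 2.32). A member therefore had to stand above those other nuclei before its level in a lineage could be read as that lineage's own. They are called non-hepatocyte nuclei below. A member that did not stand above them is not thereby shown to come from elsewhere. The hepatocyte markers Alb and Apoa2 themselves had ratios of 0.858 and 0.628 in deep Cox10-/- nuclei. Among the Cox10-/- hepatocyte-like nuclei, 945 formed a shallow cluster with a median of 1173 UMIs that was led by the acute-phase genes Orm2, Saa2 and Saa1. The other 808 had a median of 4410.5 UMIs and are called deep below. Hepatocyte-like nuclei of the libraries fell almost wholly into different clusters, and the values without the shallow cluster are given beside the main ones.

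In hepatocyte-like nuclei, 3 of the 10 genes (Plin5, Cd36 and Pparg) were at least 2-fold higher in the library labelled Cox10-/-, 1 (G0s2) was at least 2-fold lower, and 6 were neither. A gene was counted when its ratio passed 2-fold and its whole interval lay beyond 1.5-fold, among genes with at least 20 UMIs over both libraries. By that rule 8.79% of the 12576 genes tested were higher and 3.27% were lower. The median log2 ratio of the members was 0.64, against -0.02 for all genes tested. Without the shallow cluster, Plin4 joined the higher genes, which made 4 of 10 beside 4.70% of 12385 genes, G0s2 was again the lower one beside 2.79%, and the members' median was 0.32 against 0.03. The droplet genes did not move as one: of the perilipins Plin5 was called in both settings and Plin2 in neither, and of the lipase and its inhibitor G0s2 was called and Pnpla2 was not. Of the called genes, Plin5 and Plin4 stood above the non-hepatocyte nuclei in deep Cox10-/- nuclei, 2.75- and 9.26-fold. Cd36, Pparg and G0s2 had 0.114, 0.254 and 0.656 of the non-hepatocyte level. The counts describe summed nuclei and do not show that hepatocytes express each gene.

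**Figure D1:**
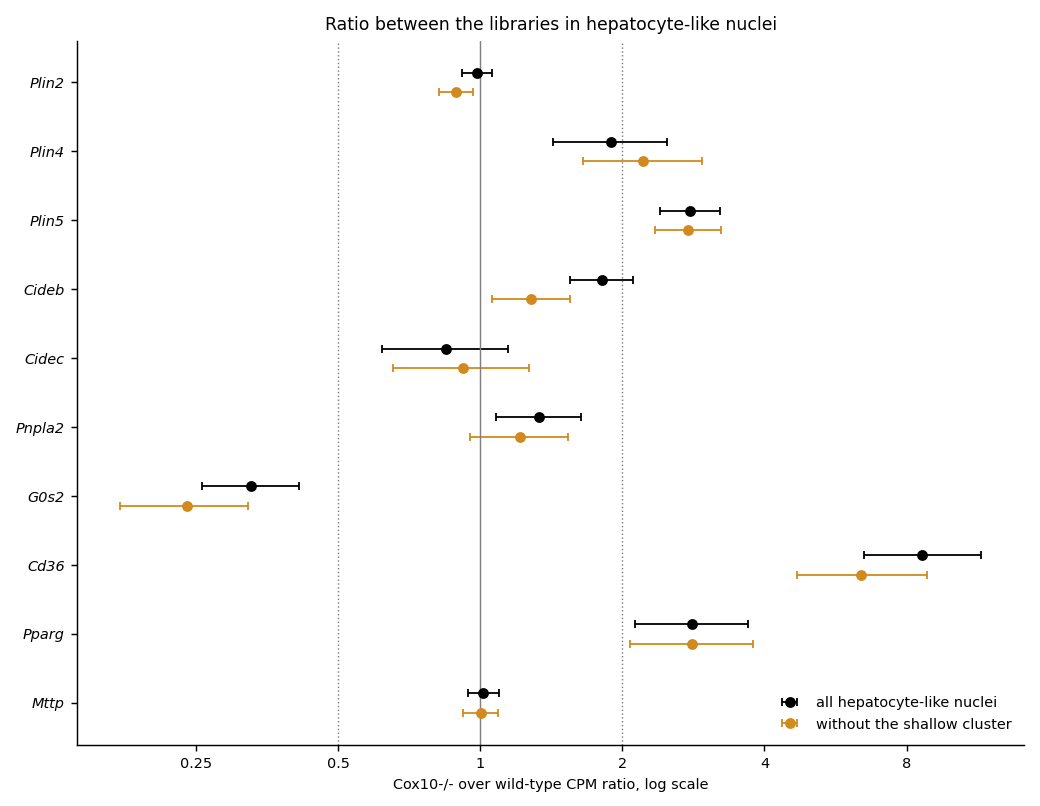
Ratio of CPM in Cox10-/- over wild-type hepatocyte-like nuclei for each gene, on a log scale with 95% counting intervals and 1 library per genotype. Black points use all hepatocyte-like nuclei, orange points leave out the shallow Cox10-/- cluster, the solid line marks equal levels and the dotted lines 2-fold. Cd36 lies at 8.61 and 6.42, Plin5 at 2.78 and 2.76, and G0s2 at 0.328 and 0.239. The Cd36 ratio is not read as hepatocyte expression.

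Samples also differed in genes that can reflect handling or cytoplasmic RNA. Genes that can respond to tissue handling (Fos, Jun, Egr1 and related genes) were higher in Cox10-/- hepatocyte-like nuclei for 7 of 8 tested. Their summed levels were 2137 CPM in Cox10-/- and 845 CPM in wild-type nuclei. With 1 library per genotype, handling and genotype cannot be told apart. Ribosomal protein genes, a sign of cytoplasmic RNA, were higher for 6 of 8, at 926 and 342 CPM, and for 1 of 8 without the shallow cluster, at 542 CPM in Cox10-/- nuclei. Mitochondrially encoded genes were lower for 6 of 13, and for 11 of 13 without the shallow cluster. Their part in the members' ratios was not tested.

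Perilipins coat the droplet surface and control the access of lipases. Plin5, which ties droplets to mitochondria in oxidative tissues, had 340 UMIs or 64.2 CPM (57.5 to 71.4) in Cox10-/- hepatocyte-like nuclei, against 390 UMIs or 23.1 CPM (20.8 to 25.5) in wild-type ones. The ratio was 2.78 (2.40 to 3.23), and 2.76 (2.35 to 3.24) without the shallow cluster. After each nucleus was thinned to 1000 UMIs, 6.03% of Cox10-/- and 2.06% of wild-type hepatocyte-like nuclei held a Plin5 UMI. Finer clustering (resolution 2.0) split the Cox10-/- hepatocyte-like nuclei into a deep part of 715 nuclei, a Glul-high part of 73 and the shallow part of 944. Plin5 measured 63.5, 70.7 and 66.0 CPM in the deep, Glul-high and shallow parts, against 16.3 to 30.3 CPM over 10 wild-type parts, so that no wild-type part reached a Cox10-/- part. Other lineages of the Cox10-/- library had 22.3 CPM (stellate-like), 22.6 CPM (macrophage-like) and 23.8 CPM (endothelial-like), and the deep hepatocyte-like nuclei stood 2.75-fold (2.25 to 3.37) above the non-hepatocyte nuclei, inside the range of the hepatocyte markers.

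Plin4, a perilipin of small droplets best known from fat and muscle, lies next to Plin5 on the minus strand of chromosome 17. Plin5 spans chr17:56111601-56117596 and Plin4 chr17:56100591-56109803 (mm10, GENCODE vM21), with 1797 bases between them. Plin4 had 84 UMIs or 15.9 CPM (12.6 to 19.6) in Cox10-/- hepatocyte-like nuclei, against 142 UMIs or 8.39 CPM (7.07 to 9.89) in wild-type ones, a ratio of 1.89 (1.42 to 2.49). Its level depended on the shallow cluster. The deep, Glul-high and shallow Cox10-/- parts measured 19.7, 12.2 and 6.60 CPM, against 4.36 to 13.8 CPM over the wild-type parts, and the ratio without the shallow cluster was 2.22 (1.65 to 2.95). Plin4 was scarce in the non-hepatocyte nuclei of the Cox10-/- library, with 14 UMIs or 2.01 CPM. The deep hepatocyte-like level was 9.26-fold higher (5.19 to 17.7), against 7.33-fold for the highest of the hepatocyte markers. The cholangiocyte-named cluster, which is not among the non-hepatocyte nuclei and is described below, had 42 UMIs or 51.6 CPM.

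The pair has another neighbour on the same strand. Lrg1, a secreted acute-phase glycoprotein gene, lies 2081 bases upstream of Plin5. In hepatocyte-like nuclei Lrg1 had 189 CPM in Cox10-/- and 33.7 CPM in wild-type (5.62-fold higher, 5.07 to 6.24), and 113 CPM or 3.35-fold without the shallow cluster. Lrg1 was called higher in Cox10-/- endothelial-, stellate- and macrophage-like nuclei too. Plin5 was not called there, with 75, 46 and 33 UMIs in Cox10-/- against 1, 0 and 0 in wild-type nuclei. So few wild-type UMIs cannot show whether Plin5 differs from Lrg1 in these lineages. Whether reads that run past a gene's end were counted for its neighbour was not tested. The 3′ end of Plin4 overlaps Hdgfl2 on the opposite strand by 17 bases, and strand use in the counting is not given in the sources used here. In hepatocyte-like nuclei Hdgfl2 had 36.04 CPM in Cox10-/- and 24.3 CPM in wild-type, a ratio of 1.48.

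The bases before the start sites of Plin5 and Plin4 are shown because these tandem genes were both higher in deep Cox10-/- nuclei. Each run is 250 bases long, 5′ to 3′ on the minus strand, from RefSeq windows on GRCm38.p6, at chr17:56117549-56117798 for Plin5 and chr17:56109783-56110032 for Plin4. Capitals mark AGGTCA on either strand, the core hexamer bound by nuclear receptors, PPARs among them.
Plin5: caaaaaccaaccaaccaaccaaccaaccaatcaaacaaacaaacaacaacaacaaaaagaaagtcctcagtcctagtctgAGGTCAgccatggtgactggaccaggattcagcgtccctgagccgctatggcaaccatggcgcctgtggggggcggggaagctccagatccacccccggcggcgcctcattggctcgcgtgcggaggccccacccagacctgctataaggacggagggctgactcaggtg
Plin4: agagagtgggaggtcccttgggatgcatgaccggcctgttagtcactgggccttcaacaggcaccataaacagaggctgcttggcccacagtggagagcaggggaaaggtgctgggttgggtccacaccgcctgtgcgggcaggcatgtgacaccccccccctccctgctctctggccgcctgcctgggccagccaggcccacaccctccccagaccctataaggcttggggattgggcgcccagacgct
The Plin5 window held 1 such hexamer, starting 170 bases before the start site, and the Plin4 window none. RefSeq windows of 250 bases before and 50 after a start were found for all 10 genes (14 windows), and 4 genes (Plin2, Plin5, Cd36 and Pparg) had AGGTCA in at least 1 window. Counted by window, 6 of the 14 held the hexamer, which occurs in 16.3% of all 32851 windows. The spaced direct repeat AGGTCANAGGTCA occurs in 13 windows and AGGNCANAGGNCA in 125 (0.381%), both strands searched, and neither in a window of the 10 genes. A match is a description of letters and not a measured binding site.

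Plin2, the main droplet coat protein of liver (chr4:86648386-86670060), was level overall. It had 985 UMIs or 186 CPM (174 to 198) in Cox10-/- hepatocyte-like nuclei, against 3191 UMIs or 189 CPM (182 to 195) in wild-type ones, a ratio of 0.986 (0.917 to 1.06). The equal totals hid a spread inside the Cox10-/- library. Plin2 measured 133 CPM (121 to 145) in the deep part, 247 CPM (220 to 276) in the shallow part and 468 CPM (404 to 539) in the Glul-high part, whereas the 10 wild-type parts lay between 151 and 223 CPM. The Glul-high parts are the clusters of 73 Cox10-/- and 145 wild-type nuclei with the highest summed level of Glul, the glutamine synthetase that marks hepatocytes around the central vein, with 836 and 1032 CPM of Glul. They and the other parts were picked out after values were seen. In the wild-type Glul-high part Plin2 had 194 CPM (156 to 239), an interval that did not reach that of the Cox10-/- part. After thinning, 35.6% (24.7 to 47.7) of Cox10-/- and 14.5% (9.19 to 21.3) of wild-type Glul-high nuclei held a Plin2 UMI. Plin2 was seen in all 4 lineages: endothelial- and stellate-like nuclei had 115 and 116 CPM in the Cox10-/- library and 123 and 121 CPM in the wild-type one. Macrophage-like nuclei had 177.5 CPM (156.5 to 200.5) in Cox10-/- and 167.5 CPM (103.7 to 256) in wild-type. In the Cox10-/- library the hepatocyte- and macrophage-like intervals lay above those of endothelial-like (103.1 to 127) and stellate-like nuclei (101.3 to 131.2).

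**Figure D2:**
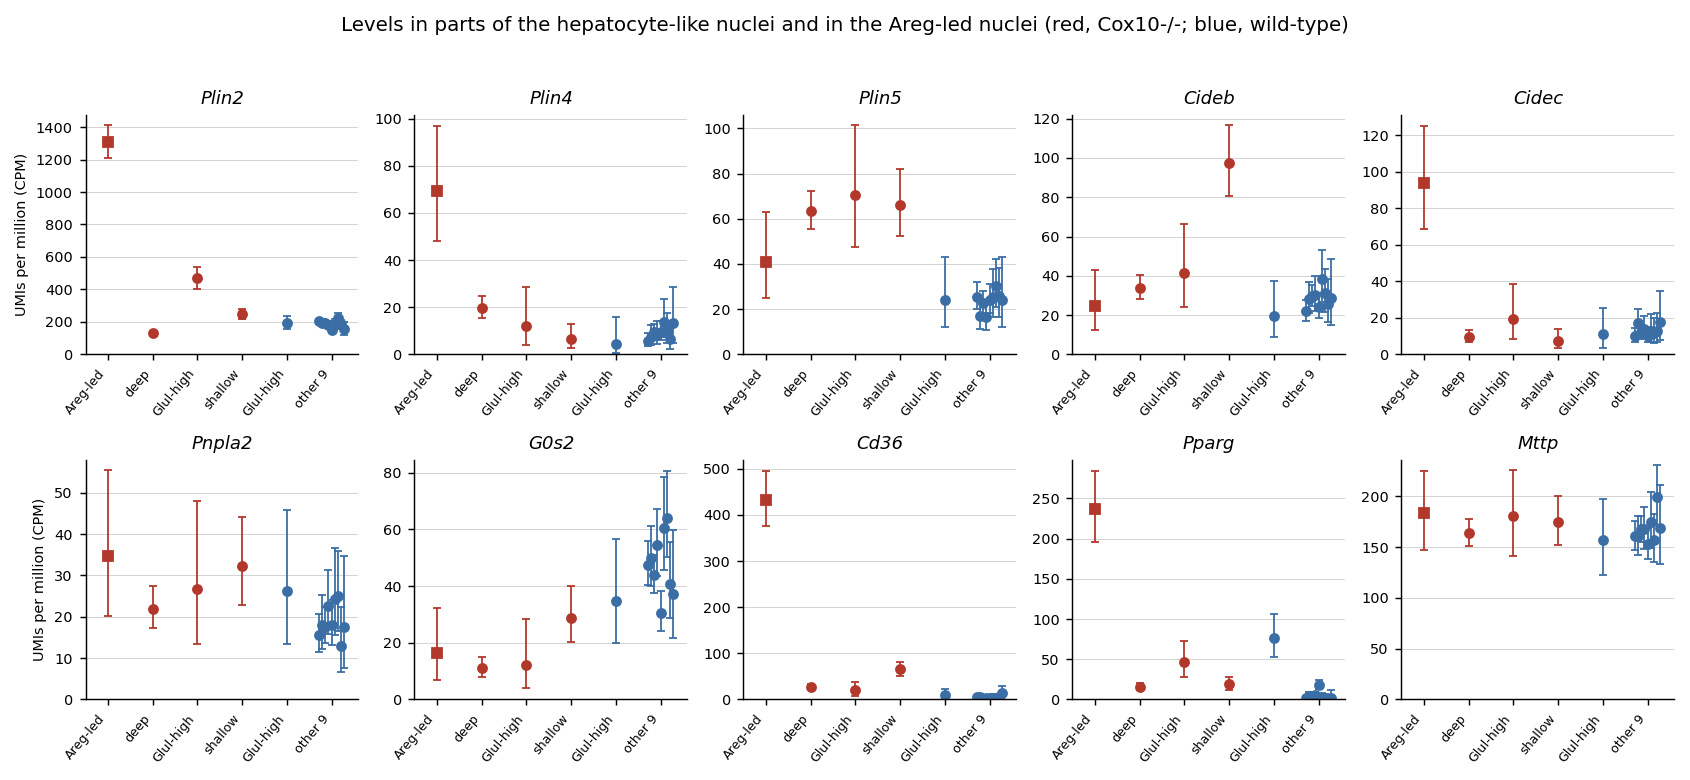
CPM of each gene with 95% counting intervals in parts of the nuclei set apart at clustering resolution 2.0. Red points are Cox10-/-: the square is the Areg-led group of 109 nuclei, the circles the deep, Glul-high and shallow hepatocyte-like parts. Blue points are wild-type: the Glul-high part, then the other 9 hepatocyte-like parts. Plin2 reaches 1306 CPM in the Areg-led nuclei and 468 CPM in the Cox10-/- Glul-high part, and all 3 Cox10-/- hepatocyte-like parts lie above every wild-type part for Plin5.

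CIDE proteins enlarge droplets by moving lipid from smaller to larger ones. Cidec (chr6:113424634-113435760), the form known for large droplets in fat and steatotic liver, had 55 UMIs or 10.4 CPM (7.82 to 13.5) in Cox10-/- hepatocyte-like nuclei, against 207 UMIs or 12.2 CPM (10.6 to 14.02) in wild-type ones, a ratio of 0.848 (0.618 to 1.15). Cidec was close to absent from the Cox10-/- non-hepatocyte nuclei, with 1 UMI in endothelial-like, 5 in stellate-like, 2 in macrophage-like and 2 in lymphoid-like nuclei. Deep hepatocyte-like nuclei stood 7.85-fold (3.91 to 17.4) above them. The cholangiocyte-named cluster of that library had 47 Cidec UMIs or 57.7 CPM. Cideb (chr14:55754050-55758458), which in hepatocytes also helps to load lipid onto VLDL, had 261 UMIs or 49.3 CPM (43.5 to 55.6) in Cox10-/- and 461 UMIs or 27.3 CPM (24.8 to 29.9) in wild-type nuclei of that lineage, a ratio of 1.81 (1.55 to 2.11). Cideb was highest in the shallow cluster, at 97.3 CPM, whereas the deep nuclei had 35.0 CPM and a ratio of 1.28 (1.06 to 1.55). Deep nuclei did not stand above the Cox10-/- non-hepatocyte nuclei, at 35.0 and 35.9 CPM. Cideb shares 1451 bases with Nop9 on the opposite strand, which had a ratio of 1.38 (0.989 to 1.91). With every nucleus thinned to 1000 UMIs the Cideb ratio was 2.40 (1.86 to 3.08), past 2-fold. Thinning gives each nucleus the same weight, and 886 of the 1692 thinned Cox10-/- nuclei were shallow. A Cideb UMI was then held by 9.03% of shallow and 3.23% of deep Cox10-/- nuclei, against 2.79% of wild-type ones.

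Pnpla2 encodes ATGL, the lipase that takes the first fatty acid from triglyceride, and G0s2 encodes its inhibitor. G0s2 (chr1:193272161-193273217) had 80 UMIs or 15.1 CPM (12.0 to 18.8) in Cox10-/- hepatocyte-like nuclei, against 779 UMIs or 46.0 CPM (42.9 to 49.4) in wild-type ones, and was 3.05-fold lower (2.42 to 3.89). The deficit was larger in the deep nuclei, at 11.01 CPM and 4.18-fold lower (3.10 to 5.78). The deep, Glul-high and shallow Cox10-/- parts had 11.1, 12.2 and 28.9 CPM, and all lay under the lowest of the 10 wild-type parts (30.6 CPM, highest 64.1), although the shallow interval of 20.1 to 40.2 overlapped them. The share of thinned nuclei with a G0s2 UMI was 2.13% in Cox10-/- and 4.58% in wild-type hepatocyte-like nuclei. G0s2 is also part of the free RNA: wild-type non-hepatocyte nuclei had 16 UMIs or 41.7 CPM, so the hepatocyte-like level was 1.10-fold that of the others (0.676 to 1.94), and in the Cox10-/- library the stellate-like nuclei had the highest level of the 4 lineages, 31.1 CPM (23.9 to 39.7). The gene lies inside Lamb3, on the opposite strand. Lamb3 had 21 UMIs in Cox10-/- and 127 in wild-type hepatocyte-like nuclei (1.89-fold lower, 1.19 to 3.17), and without strand the reads of the 2 genes cannot be told apart.

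The bases before the G0s2 start are shown because it was the member that was lower. The run covers chr1:193273189-193273438 on the minus strand (RefSeq, GRCm38.p6) and has no AGGTCA.
G0s2: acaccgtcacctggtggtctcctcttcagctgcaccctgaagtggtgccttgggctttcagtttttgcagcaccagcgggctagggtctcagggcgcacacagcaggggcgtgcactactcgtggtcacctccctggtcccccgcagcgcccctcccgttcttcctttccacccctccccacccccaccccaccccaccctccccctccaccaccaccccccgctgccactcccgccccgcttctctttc

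Pnpla2 (chr7:141455198-141460743) had 131 UMIs or 24.7 CPM (20.7 to 29.3) in Cox10-/- and 314 UMIs or 18.6 CPM (16.6 to 20.7) in wild-type nuclei of that lineage, a ratio of 1.33 (1.08 to 1.64) that was 1.21 (0.951 to 1.54) without the shallow cluster. Its levels across the 4 lineages of the Cox10-/- library, 16.02 to 26.04 CPM, gave no lineage a clear lead. Lipase and inhibitor differed in opposite directions by value, though only the inhibitor passed the 2-fold rule.

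Cd36, a scavenger receptor that takes up fatty acids and oxidised lipoproteins (chr5:17781690-17888801), belonged to endothelial- and macrophage-like nuclei in both livers. Endothelial-like nuclei had 1173 UMIs or 371 CPM (350 to 393) in Cox10-/-, against 31 UMIs or 348 CPM (236 to 493) in wild-type, a ratio of 1.07 (0.749 to 1.58). Macrophage-like nuclei had 353 UMIs or 242 CPM (217 to 269) in Cox10-/-, against 22 UMIs or 175 CPM (110 to 266) in wild-type, for which the ratio was 1.38 (0.896 to 2.23). The endothelial level of the Cox10-/- library exceeded its macrophage level beyond counting error, and in the wild-type library the intervals overlapped. Hepatocyte-like nuclei had 186 UMIs or 35.1 CPM (30.2 to 40.5) in Cox10-/-, against 69 UMIs or 4.08 CPM (3.17 to 5.16) in wild-type, a ratio of 8.61 (6.50 to 11.5) and of 6.42 without the shallow cluster. The Cox10-/- hepatocyte interval overlapped those of Cox10-/- stellate-like nuclei, at 30.6 CPM (23.5 to 39.1), and lymphoid-like nuclei, at 54.3 CPM (31.0 to 88.1), and after thinning 4.61% of hepatocyte-like and 3.07% of stellate-like Cox10-/- nuclei held a Cd36 UMI. The deep nuclei, at 26.2 CPM, had 0.114 of the level in the non-hepatocyte nuclei together. Marker sums of several other lineages were higher in Cox10-/- hepatocyte-like nuclei too, and not only those of the lineages with high Cd36. In hepatocyte-like nuclei endothelial markers summed to 97.4 CPM in Cox10-/- and 33.9 CPM in wild-type (17 of 18 detected in each), and macrophage markers to 123 and 13.95 CPM (12 of 12 in each). Stellate markers summed to 290 CPM in Cox10-/- and 107 CPM in wild-type, and lymphoid markers to 6.98 and 2.25 CPM. The part of RNA from other lineages in the Cd36 ratio was not tested, and the ratio is not read as hepatocyte expression.

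Pparg encodes PPAR-gamma, the nuclear receptor that drives fat storage genes (chr6:115360951-115490399, plus strand). Its highest level among the 4 lineages was in Cox10-/- macrophage-like nuclei, with 458 UMIs or 314 CPM (286 to 344), against 1 UMI or 7.97 CPM (0.202 to 44.4) in 38 wild-type macrophage-like nuclei. The ratio was 39.4 with an interval of 7.03 to 1558, as wide as 1 wild-type UMI makes it. Of these nuclei 35.3% in Cox10-/- and 2.63% in wild-type held a Pparg UMI, and after thinning 20.3% (17.0 to 23.9) and 0 of 38 (0 to 9.25%). Macrophage-like was the only one of the 4 lineages with a member called higher besides hepatocyte-like: 1 of 8 members tested, beside 2.06% of 7758 genes higher and 4.89% lower. Both groups carried all 12 macrophage markers, which summed to 5121 CPM in Cox10-/- and 3174 CPM in wild-type nuclei. Of the check lists, 2 of 6 handling genes and 2 of 8 ribosomal protein genes were higher in these Cox10-/- nuclei, and their part was not tested. Kupffer cell genes, which mark the resident liver macrophages, were present in both: Clec4f had 638 CPM in Cox10-/- and 447 CPM in wild-type nuclei, and Timd4 282 and 287 CPM. Other markers of the list differed more, Marco with 213.8 CPM in Cox10-/- and 31.9 CPM (4 UMIs) in wild-type nuclei and Adgre1 with 725 and 263 CPM, and whether the macrophage-like sets hold the same kinds of macrophage was not tested. Pparg measured 18.7 CPM in Cox10-/- endothelial-like, 1.46 CPM (3 UMIs) in stellate-like and 5.46 CPM (1 UMI) in other myeloid nuclei. High Pparg was not particular to macrophage-like nuclei, as 109 Cox10-/- nuclei within the cholangiocyte-named cluster had 236 CPM (195 to 284). Under the other lineage assignment, with members allowed among the clustering genes and without the highest doublet scores, the ratio ranged from 34.0 to 41.3, and a 10% limit on mitochondrial UMIs left 2 wild-type macrophage-like nuclei and no value.

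In hepatocyte-like nuclei Pparg had 101 UMIs or 19.1 CPM (15.5 to 23.2) in Cox10-/-, against 115 UMIs or 6.80 CPM (5.61 to 8.16) in wild-type, a ratio of 2.80 (2.13 to 3.70) and of 2.81 without the shallow cluster. In wild-type nuclei the gene was concentrated at the Glul-high end. The Glul-high part had 35 UMIs or 76.4 CPM (53.2 to 106), the next part, with 107 CPM of Glul and 2574 CPM of the pericentral gene Cyp2e1, had 43 UMIs or 17.6 CPM (12.7 to 23.6), and the other 8 wild-type parts had 1.07 to 5.02 CPM. The Glul-high part was the highest in Cox10-/- nuclei as well, at 46.3 CPM (27.9 to 72.3), against 15.8 CPM (12.0 to 20.5) in the deep part and 19.0 CPM (12.0 to 28.5) in the shallow part. Between the Glul-high parts the intervals overlapped, at 46.3 CPM in Cox10-/- and 76.4 CPM in wild-type nuclei. The 808 deep Cox10-/- nuclei together had 0.254 of the Pparg level of the Cox10-/- non-hepatocyte nuclei, and the macrophage marker sum moved with the library as given for Cd36. Assigning lineage per nucleus by markers gave a Pparg ratio of 5.45 (4.35 to 6.86) and a Cd36 ratio of 15.6 (12.1 to 20.3).

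The start of a Pparg transcript is shown because Pparg had the largest called ratio, that of macrophage-like nuclei, which rests on 1 wild-type UMI. In hepatocyte-like nuclei Cd36 had a larger ratio, 8.61 against 2.80 for Pparg. Pparg is also the only member that is itself a nuclear receptor. The run covers chr6:115360894-115361143 on the plus strand (RefSeq, GRCm38.p6), with the AGGTCA hexamer in capitals starting 28 bases before the start site.
Pparg: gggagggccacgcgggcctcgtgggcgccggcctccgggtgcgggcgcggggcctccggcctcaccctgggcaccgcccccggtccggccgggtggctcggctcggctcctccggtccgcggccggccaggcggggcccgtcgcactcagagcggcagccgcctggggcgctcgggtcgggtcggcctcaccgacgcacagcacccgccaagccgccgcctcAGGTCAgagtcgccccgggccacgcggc

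**Figure D3:**
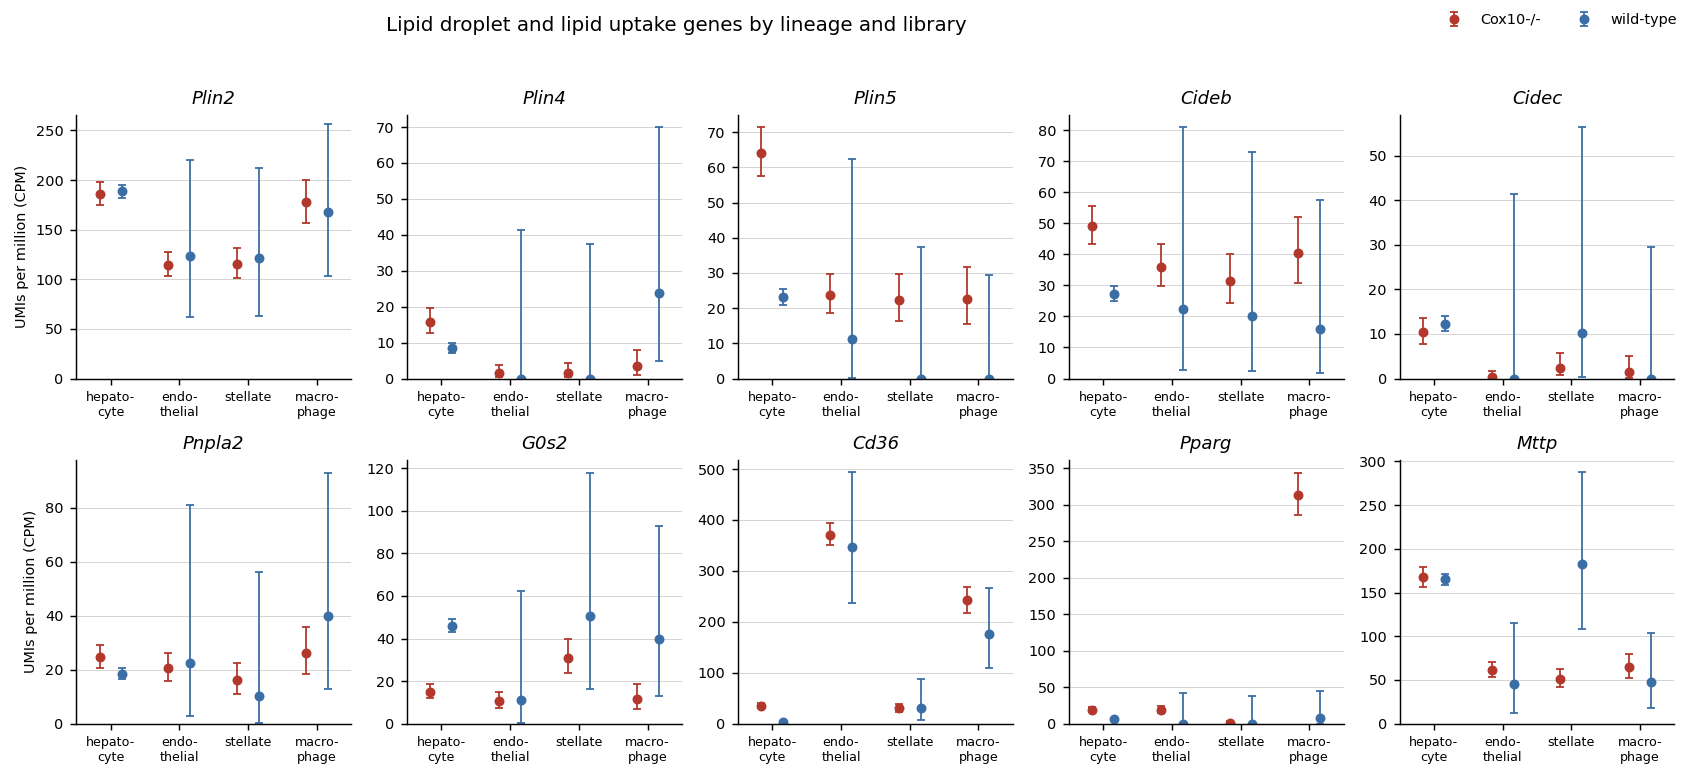
CPM of each gene in the 4 lineages, Cox10-/- in red to the left of wild-type in blue, with 95% counting intervals and 1 library per genotype. Among the lineages plotted Pparg is highest in Cox10-/- macrophage-like nuclei, at 314 CPM, Cd36 is high in endothelial- and macrophage-like nuclei of both libraries, and wild-type intervals outside hepatocyte-like nuclei are wide.

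Mttp encodes the transfer protein that loads triglyceride onto apolipoprotein B for VLDL (chr3:138089854-138144968). Hepatocyte-like nuclei had 888 UMIs or 168 CPM (157 to 179) in Cox10-/- and 2793 UMIs or 165 CPM (159 to 171) in wild-type, a ratio of 1.02 (0.940 to 1.10), and its parts were level as well, at 164 to 180 CPM in Cox10-/- and 153 to 200 CPM in wild-type nuclei. In stellate-like nuclei Mttp had 106 UMIs or 51.5 CPM (42.1 to 62.3) in Cox10-/-, against 18 UMIs or 182 CPM (108 to 288) in wild-type, 3.54-fold lower (2.02 to 5.87). It was the 1 of 7 members tested that was called there, beside 5.77% of 8767 genes lower and 2.75% higher. Stellate markers themselves summed to 29304 CPM in Cox10-/- (14 of 14 detected) and 12960 CPM in wild-type stellate-like nuclei (12 of 14), and hepatocyte markers to 25421 and 27933 CPM (18 of 18 in each). Near-equal sums do not mean equal hepatocyte RNA, since single markers went both ways in the non-hepatocyte nuclei. Alb had 15256 CPM in Cox10-/- and 10388 CPM in wild-type, whereas Cps1 had 1708 and 4805 CPM and Abcc2 258 and 995 CPM. The wild-type stellate-like Mttp interval also held the wild-type hepatocyte-like level of 165 CPM. The part of hepatocyte RNA in this Mttp difference was not tested. In endothelial-like nuclei 0 of 8 members tested were called in either direction, beside 0.653% of 9948 genes higher and 0.744% lower.

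**Figure D4:**
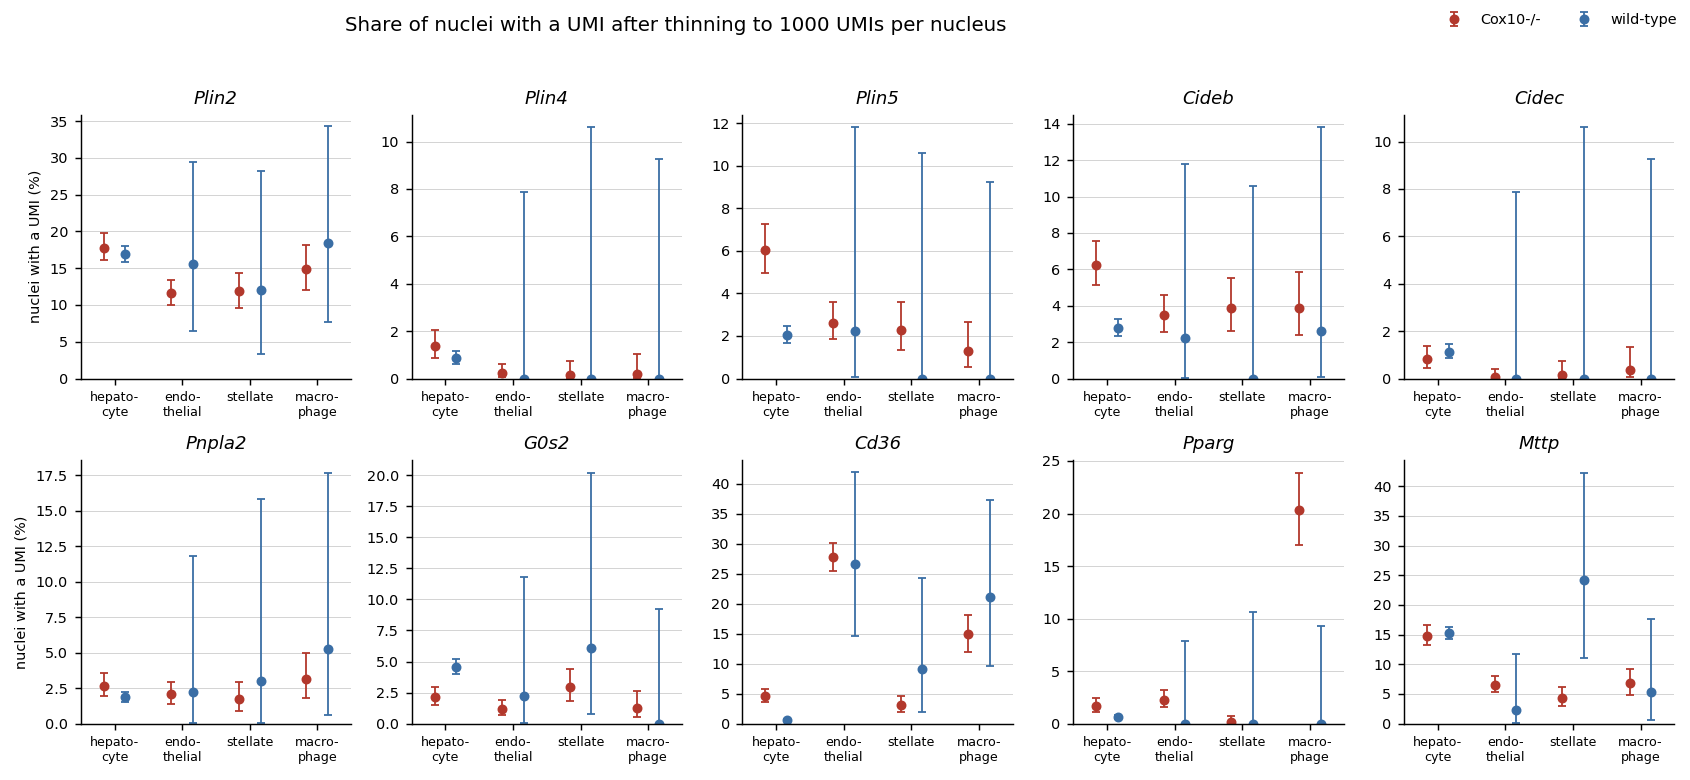
Percent of nuclei with at least 1 UMI of each gene after thinning every nucleus to 1000 UMIs, by lineage, Cox10-/- in red to the left of wild-type in blue, with 95% Clopper-Pearson intervals. Plin5 was seen in 6.03% of Cox10-/- and 2.06% of wild-type hepatocyte-like nuclei, Cd36 in 27.8% and 26.7% of endothelial-like nuclei, and Pparg in 20.3% and 0% of macrophage-like nuclei.

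A small group of Cox10-/- nuclei had far more Plin2 than the hepatocyte-like parts. The cluster named cholangiocyte-like split at finer resolution into a part with cholangiocyte markers (82 Cox10-/- and 9 wild-type nuclei, summed cholangiocyte markers 9334 and 7354 CPM) and a part of 109 Cox10-/- nuclei and 1 wild-type nucleus, where those markers summed to 428 CPM. The second part was singled out after its values were seen and has no cell type name here. Among its 10 leading genes were Areg and Nrg1, ligands of the epidermal growth factor receptor family, Slc7a11, the cystine transporter, and Pdk4, a kinase that holds back pyruvate oxidation. Areg measured 554 CPM there and 4.40 CPM in deep Cox10-/- hepatocyte-like nuclei, and Pdk4 939 and 13.95 CPM. Plin2 had 641 UMIs or 1306 CPM (1207 to 1411) and was seen in 86.2% of these nuclei. Cd36 had 432 CPM (376 to 494), Pparg 236 CPM (195 to 284), Cidec 93.7 CPM (68.6 to 125) and Plin4 69.3 CPM (48.0 to 96.8), each above the deep hepatocyte-like level of 26.2, 19.1, 11.3 and 18.6 CPM. Mttp, at 183 CPM (148 to 225), Plin5, at 40.8 CPM (24.9 to 62.9), G0s2, at 16.3 CPM (7.04 to 32.1), and Pnpla2, at 34.6 CPM (20.2 to 55.5), did not share that excess, and Cideb had 24.5 CPM (12.6 to 42.7).

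Markers gave these Areg-led nuclei no settled identity. Hepatocyte markers summed to 21402 CPM (18 of 18 detected). Cox10-/- endothelial-, stellate- and macrophage-like nuclei had 30538, 25421 and 26705 CPM, also with 18 of 18, so this sum marks no identity. Cps1 had 1879 CPM and Abcc2 1872 CPM, against 10084 and 1891 CPM in deep hepatocyte-like nuclei. The Cox10-/- non-hepatocyte nuclei had 1708 CPM of Cps1 and 258 CPM of Abcc2. The defining adipocyte genes Adipoq, Lep, Retn and Cfd had 0 UMIs, which allows up to 6.11 CPM for each, and Adrb3 had 5 UMIs and Aqp7 1. Endothelial markers summed to 71.3 CPM and macrophage markers to 81.5 CPM, and their part in the Cd36 and Pparg levels was not tested. The group was 2.11% of the Cox10-/- library, its median depth was 4007 UMIs, and Cox10 measured 46.9 CPM (29.7 to 70.3) in it.

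The other genes of these pathways are counted by list for hepatocyte-like nuclei, where 8.79% of all genes tested were higher and 3.27% lower, and several calls were not made without the shallow cluster. Of 12 tested genes of neutral lipid synthesis and droplet formation, 1 was higher (Bscl2, seipin of droplet budding, 13.4 CPM in Cox10-/- and 6.50 CPM in wild-type nuclei) and 0 were lower, with a median log2 ratio of 0.16. Without the shallow cluster Bscl2 had a ratio of 1.58 and 0 of the 12 were called. Agpat2, Acsl3 and Acsl4, which make phosphatidic acid or activate fatty acids, had ratios of 1.45, 0.653 and 1.42 and were not called. Of 16 other coat and lipase genes, 1 was higher (Ces1g, 100.4 CPM in Cox10-/- and 36.2 CPM in wild-type nuclei) and 2 were lower, with a median of 0.09. These were the carboxylesterase gene Ces1f, at 95.7 CPM in Cox10-/- and 245 CPM in wild-type nuclei (2.56-fold lower), and Pnpla3, a droplet lipase gene, with 10 UMIs in Cox10-/- and 185 in wild-type nuclei (5.80-fold lower, 3.08 to 12.3). Pnpla3 and Ces1f were lower without the shallow cluster too, 4.97- and 2.96-fold, whereas Ces1g had 1.81 and was not called. Ddhd2, a phospholipase and triglyceride lipase gene, was called higher in that setting alone, at 2.03 against 1.84 with all nuclei. Lipe, the hormone-sensitive lipase, was 1.89-fold lower by value and not called.

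Of 16 tested genes of fatty acid uptake and binding, 3 were higher (Slc27a4, Lpl and Gpihbp1) and 1 lower (Fabp5), with a median of 0.18. Lpl, the lipoprotein lipase that frees fatty acids from circulating triglyceride, had 204 UMIs or 38.5 CPM in Cox10-/- and 21 UMIs or 1.24 CPM in wild-type nuclei (31.0-fold, 19.8 to 51.2), and like Cd36 it lay below the non-hepatocyte nuclei of its own library, at 63.8 CPM in Cox10-/- and 36.5 CPM in wild-type. Fabp5, a fatty acid carrier, had 14.9 CPM in Cox10-/- and 31.8 CPM in wild-type nuclei, 2.13-fold lower and 4.19-fold lower without the shallow cluster. Without it Slc27a4, a fatty acid transporter with a ratio of 2.13, and Gpihbp1, the endothelial anchor of Lpl with a ratio of 4.70, had 1.58 and 2.19 and were not called. Gpihbp1 lay below the non-hepatocyte nuclei of its own library, at 71.0 CPM in Cox10-/- and 26.1 CPM in wild-type. For Fabp5 those nuclei had 21.1 CPM in Cox10-/- and 28.7 CPM in wild-type.

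VLDL genes showed the same dependence. Of 12 tested, 3 were higher: Apoc3, which slows lipoprotein clearance (826 CPM in Cox10-/- and 384 CPM in wild-type nuclei), Apoe, a ligand for remnant uptake (5264 and 2069 CPM), and Surf4, a cargo receptor (98.3 and 45.8 CPM). These sums over all Cox10-/- hepatocyte-like nuclei stood near the Cox10-/- non-hepatocyte nuclei, at 785, 5249 and 97.1 CPM. The deep nuclei alone lay below those, at 501, 3009 and 59.2 CPM. In the same list the phospholipid transfer gene Pltp was lower, at 5.85 CPM in Cox10-/- and 15.7 CPM in wild-type nuclei, and the list's median log2 ratio was 0.59. Without the shallow cluster the first 3 had ratios of 1.31, 1.45 and 1.29 and were not called, while Pltp was 3.57-fold lower. Pltp lay below the non-hepatocyte nuclei in both libraries, at 32.3 CPM in Cox10-/- and 44.3 CPM in wild-type, so its ratio is not read as hepatocyte expression. Of 15 tested partners and regulators of PPAR-gamma, Cebpb and Cebpd, transcription factors that act upstream of Pparg in fat cell differentiation, were higher and 0 lower, with a median of -0.11. Cebpb had 357 CPM in Cox10-/- and 149 CPM in wild-type nuclei (2.40-fold, 2.29 without the shallow cluster), and Cebpd 10.2 and 3.78 CPM (2.69 and 2.65). Cebpd was higher still in the Cox10-/- non-hepatocyte nuclei, at 26.4 CPM, so its ratio is not read as hepatocyte expression. The wild-type non-hepatocyte nuclei had 5.21 CPM of Cebpd, less than 3 counts amount to there (7.82 CPM), and no order is read from it. Srebf1 and Klf15 had ratios of 1.81 and 1.45 and were not called.

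The genes whose levels were most like those of a member over the 8 sums (4 lineages in 2 libraries, log2 of CPM plus 1) were compared among 8997 genes, as a description only, since these sums share libraries and free RNA. Plin5 was closest to Mme (Pearson r = 0.994), Atf3 and Prpf18 (both 0.981), of which Atf3 is on the handling list. Cd36 was closest to Mrc1 (0.974) and the endothelial marker Pecam1 (0.968), genes of the endothelial and macrophage lineages that carry it. Pparg had no match above 0.939 (Ywhag), and G0s2 none above 0.930 (Clasrp).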

How the data were processed

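Nuclear RNA of 2 livers was measured, and the deposited table holds raw counts of UMIs per gene and nucleus, which the authors made with Cell Ranger 7.0 on mm10 per the submitters' processing notes. Its nuclei run from 601 to 3999 genes. No source used here gives the annotation, strand or intron settings. All deposited nuclei were kept, since a 10% limit on mitochondrially encoded UMIs left almost no wild-type nuclei outside hepatocytes. Scanpy 1.11.5 scaled each nucleus to 10000 UMIs. From 2000 variable genes, with the members and pathway lists kept out, it took 30 principal components and 15 neighbours for Leiden clustering at resolution 1.0, with no integration. Clusters were named from marker lists. Macrophage-like nuclei also had to be macrophage-named at resolution 2.0, a rule added after the clusters were seen, which kept 550 of 660 Cox10-/- and 38 of 41 wild-type nuclei. Scrublet called 13 Cox10-/- and 0 wild-type nuclei, too few to have worked, so no doublets were removed. UMIs were summed per lineage and library, with exact Poisson, Clopper-Pearson and conditional binomial intervals, and 3 counts over the sum served as the limit where none was seen. The rule was tested on simulated data. All 10 members are reported, and of each list up to 4 genes with the largest absolute log2 ratio. The members and lists were chosen with earlier results of these data known.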

Additional observations from a re-analysis of the deposited data

How the results depend on the processing

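No paired analysis was possible because each genotype had 1 library and the labels give no replicate numbers. Members called higher in hepatocyte-like nuclei numbered 3 or 4, and members called lower 1, under every alternative run. Plin4 joined them with at least 1000 genes per nucleus, with lineage assigned per nucleus by markers and without the shallow cluster, and Cideb joined them with nuclei thinned to 1000 UMIs. No member's called ratio changed direction. Without the shallow cluster the medians of 3 lists changed sign, to -0.07 against 0.18 for uptake and binding, -0.02 against 0.09 for coat and lipases, and 0.09 against -0.11 for PPAR-gamma partners. In that setting Fabp1 had a ratio of 0.682 against 1.116, Ppara 1.06 against 0.888 and Lpin1 1.05 against 0.942, none of them called in either. The count of genes at least 2-fold higher in hepatocyte-like nuclei, 1106, was 623 with at least 1000 genes per nucleus, 1735 with lineage per nucleus by markers, 708 with at least 100 UMIs over both sums, 582 without the shallow cluster and 574 without it and with at most 10% mitochondrially encoded UMIs. The cause was not tested, except that the limits on genes and UMIs and the left-out cluster leave fewer nuclei or genes. The 2 settings without the shallow cluster were chosen after seeing the data. The planned removal of clusters far shallower than their library met 0 clusters. Of 207 alternative values of ratios, 189 stayed within the counting interval and 18 moved, and the counts for levels were 277 of 310 and 33, for shares 328 of 390 and 62, and for lists 31 of 40 and 9. The median log2 ratio of all genes was -0.10 with mitochondrially encoded genes left out of the library size and with thinning, against -0.02. With 33 to 45 wild-type nuclei in each other lineage, 3 counts there are 23.9 to 33.6 CPM, and values under that, Pparg in wild-type macrophage-like nuclei among them, rest on 1 or 2 UMIs.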
